A study of Mus musculus with 18 samples.

Results

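The effect of a growing tumour on fat was compared between an early and a late day of the same experiment. RNA was sequenced from inguinal white adipose tissue, a fat depot under the skin of the groin, of male C57BL/6J mice. One arm was given cells of the mouse lung tumour line Lewis lung carcinoma (LLC) under the skin, and the other arm received phosphate-buffered saline (PBS). Tissue was taken at day 7, which the labels call pre-cachexia, and at day 21, called cachexia, a tumour-driven loss of body mass. Each day had 4 libraries from PBS mice and 5 from LLC mice, and all 18 of the 18 libraries entered the comparison. The titles number the samples within a group and say no more of their origin, so p-values rest on the spread between libraries, part of which may be technical. For each gene the tumour effect, LLC over PBS, was taken at each day on the log2 scale, and the difference, day 21 minus day 7, was tested. This difference is called the interaction below: a positive value means that LLC relative to PBS was higher at day 21 than at day 7. Of 21899 gene IDs, 13975 had enough counts to be tested.

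White fat cells store triglyceride in droplets coated by perilipins and release it through lipolysis. Some cells of the inguinal depot can become beige, carrying many mitochondria and the uncoupling protein UCP1, which turns fuel into heat. Around the fat cells lie blood and lymph vessels, fibroblast-like progenitors, macrophages, mast cells and nerves, and a bulk sample holds the RNA of all of them. In such samples, fewer cells of a type and less RNA per cell cannot be told apart.

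Library totals ran from 14566155 to 18969387 counts with 15516 to 16232 genes detected, and mitochondrially encoded genes took 8.45% to 20.8% of counts. Markers of mature fat cells were present in every library, summing to 39520 to 89857 CPM. Several libraries stood apart from their groups. Summed over the 20 macrophage markers tested, day 21 PBS libraries 1 to 3 held 634, 691 and 462 CPM (edgeR's counts scaled to a common library size with TMM), and library 4 of that group held 3761 CPM. The other groups lay at 2516 to 4045 CPM (day 7 PBS), 1896 to 3821 CPM (day 7 LLC) and 1465 to 4976 CPM (day 21 LLC). Summed lymphatic markers split the same group in the same way, with 28.1, 41.1 and 32.7 CPM in libraries 1 to 3 and 207 CPM in library 4. Both lists hold Lyve1, so their sums share a gene and are not separate evidence. The split did not hold for every lymphatic marker: Mmrn1 stood at 0, 0.126, 0.130 and 0.123 CPM in libraries 1 to 4. Skeletal muscle genes summed to 762 CPM or more in 6 libraries, at least 1 in each group, and to 186 CPM or less in the other 12. B and plasma cell genes reached 2518 CPM in day 21 LLC library 3 and cell cycle genes 1129 CPM in day 21 LLC library 1. The part of these differences in the results below was not tested except where values without those libraries are given.

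The interaction passed the threshold (edgeR quasi-likelihood test, Benjamini-Hochberg adjusted p under 0.05) for 58 genes, 0.415% of those tested. It was positive for 37 (0.265%) and negative for 21 (0.15%). At an unadjusted p under 0.05 there were 2540 genes, and 445 had an adjusted p under 0.1 (249 positive, 196 negative). In the same fit the tumour effect itself passed for 2660 genes at day 21 (19%) and for 0 at day 7 (0%), where 389 reached an unadjusted p under 0.05; DESeq2 called 1 gene, Cldn22, a gene named after its value was seen. All 58 interaction genes also passed for the day 21 effect, which rests on the same day 21 libraries. The number called at day 21 also moved with the analysis. It was 1220, 1176 and 1415 without day 21 PBS library 1, 2 or 3, and 3984 without library 4. DESeq2 gave 3474 and limma voom with 1 variance per group 1229. Without the 6 libraries rich in muscle genes it was 367.

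The 4 group means tell how each effect changed. With a 1.5-fold difference counted as present, 45 of the 58 were gains, in which LLC and PBS differed at day 21 only. Reversals, with opposite 1.5-fold differences at the 2 days, numbered 6. A further 7 genes reached 1.5-fold at neither day, and 0 were losses, in which a difference was present at day 7 only. Over all 13975 genes 2941 (21.0%) were gains, 157 (1.12%) reversals and 261 (1.87%) losses by the same sizes. At a 2-fold limit the 58 held 30 gains, 2 reversals and 0 losses.

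**Figure D1:**
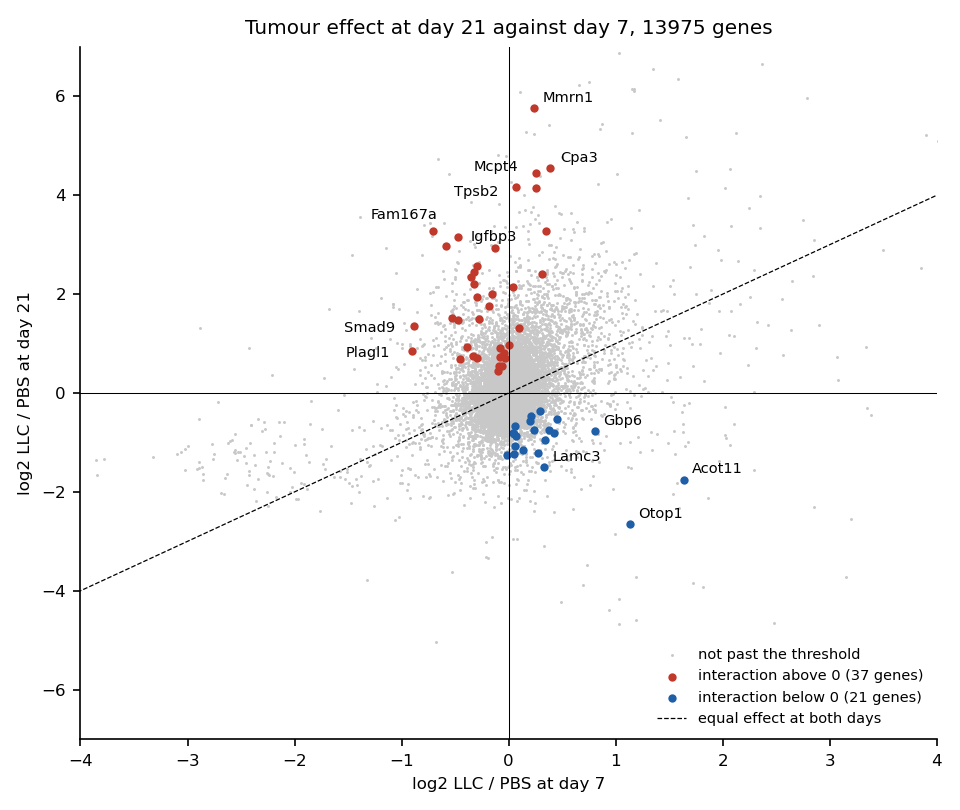
Tumour effect (log2 LLC over PBS) at day 7 on the x axis and at day 21 on the y axis, 1 point per gene, for 13975 genes of which 14 lie outside the axes. The 37 genes with a positive interaction lie above the dashed line of equal effects and the 21 with a negative one below it, most of them near 0 on the day 7 axis.

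The same 58 genes can be read along time. These means entered the interaction that chose the genes, so they are a description. In all 37 genes with a positive interaction, the day 21 PBS libraries had the lowest of the 4 group means. In 33 of the 37 the difference between days was larger in PBS than in LLC, with a median log2 day 21 over day 7 of -1.59 in PBS and 0.40 in LLC. In all 21 genes with a negative interaction the day 21 LLC libraries had the lowest mean, and day 21 PBS had the highest in 17. Among these 21 the larger difference between days was in LLC for 16, with a median of -0.71 in LLC and 0.38 in PBS.

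PBS and LLC libraries did not overlap at day 21 for 35 of the 37 and 18 of the 21, where 9.57% of all genes did not. At day 7 they did not overlap for 8 and 7 (2.48% of all genes), and at both days for 7 and 5 (0.472% of all genes), in opposite directions in all 12. Day 21 PBS library 4 had the highest level of its group in 29 of the 37 genes and the lowest in 15 of the 21, so that in most of the 58 it lay closest to the LLC libraries. The matching shares over all genes are not given here, so these counts do not tell whether this was particular to the 58. Without that library 1222 genes passed, with all 58 among them. Without day 21 PBS library 1, 2 or 3 there were 6, 10 and 8. This fall was not particular to these libraries. Without day 7 PBS library 1, 2, 3 or 4 there were 14, 7, 18 and 8. Without day 7 LLC library 1, 2, 3, 4 or 5 there were 17, 11, 19, 40 and 20. All 58 kept their direction in each of the 33 alternative analyses. These reuse libraries that chose the genes, so a kept direction is a description and no independent support. The smallest size, with limma on log2(TPM + 1), was 0.19 of the main value.

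**Figure D2:**
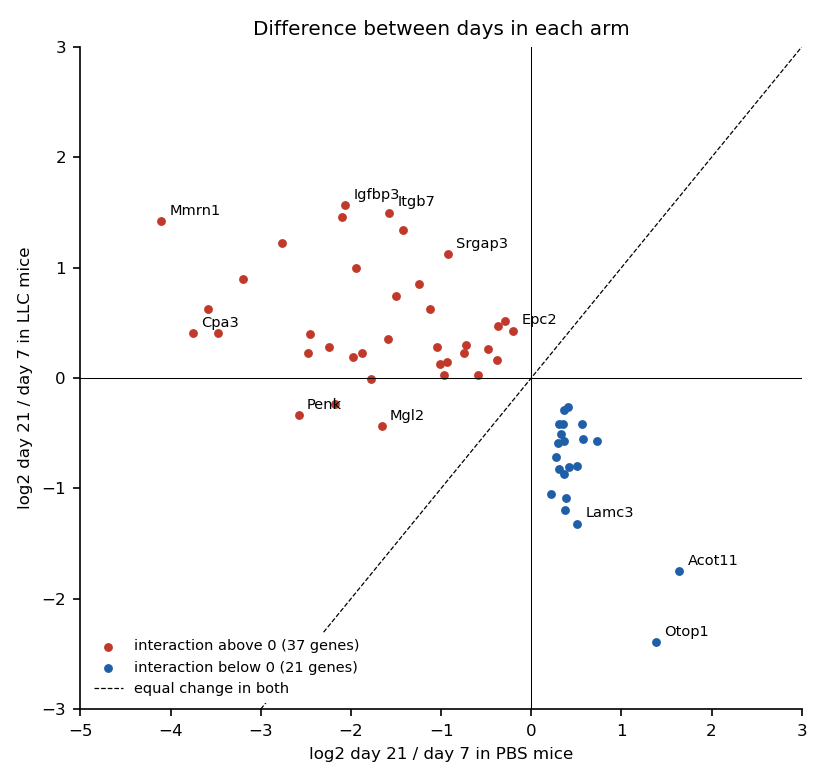
Log2 difference between day 21 and day 7 in PBS mice (x axis) and in LLC mice (y axis) for the 58 genes past the threshold. The 37 genes with a positive interaction lie left of 0 on the PBS axis, down to -4.11, and the 21 with a negative interaction lie below 0 on the LLC axis, down to -2.39.

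Leaving out each of the 18 libraries in turn, 6 genes passed every time: the mast cell proteases Mcpt4, Cma1, Cpa3 and Tpsb2, the transcriptional inhibitor Id2 and the histone gene H2bc4. Another 13 passed in at least 9 of these 18 fits, and the remaining 39 in 4 to 8. All 58 passed without day 21 PBS library 4 and without day 21 LLC library 1, 2 or 5. Without LLC library 3 or 4 of that day 30 and 29 of them passed.

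**Figure D3:**
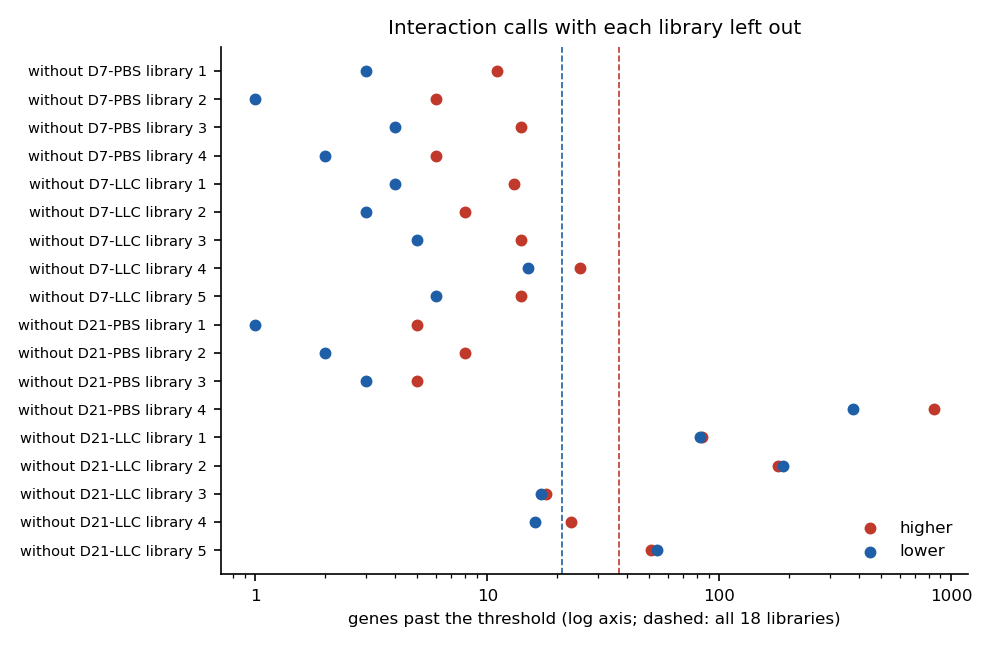
Number of genes past the threshold (x axis, log scale) with a positive (red) or negative (blue) interaction when the library named on the y axis is left out; dashed lines mark the 37 and 21 of all 18 libraries. Leaving out day 21 PBS library 4 gives 844 and 378, and leaving out day 21 PBS library 1 gives 5 and 1. Leaving out day 7 PBS library 2 gives 6 and 1.

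Of all genes tested, the 3 smallest p-values belonged to Mcpt4, Cma1 and Cpa3, proteases stored in the granules of connective tissue mast cells. Mast cells are tissue-resident immune cells that release histamine, chymases, tryptases and carboxypeptidase on activation. Mcpt4, a chymase (ENSMUSG00000061068; chromosome 14, 56059629 to 56062313, minus strand), stood at 10.3, 13.9, 9.55 and 19.998 CPM in PBS and 11.1, 17.0, 15.6, 21.9 and 14.6 CPM in LLC at day 7. At day 21 it stood at 0.843, 1.32, 0.261 and 2.03 CPM in PBS and 27.6, 19.4, 29.3, 29.3 and 17.8 CPM in LLC. The groups overlapped at day 7, and at day 21 every PBS library lay below every library of the other 3 groups. Its log2 tumour effect was 0.25 ± 0.32 (SE) at day 7 and 4.46 ± 0.41 at day 21, an interaction of 4.20 ± 0.50 (edgeR adjusted p = 0.00151).

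Cma1, mast cell chymase (ENSMUSG00000022225; chromosome 14, 55941451 to 55944675), had group means of 10.6 ± 3.14 CPM (SD, n = 4) and 12.7 ± 4.74 CPM (n = 5) in PBS and LLC at day 7, and 0.951 ± 0.405 and 16.9 ± 5.28 CPM at day 21. The interaction was 3.88 ± 0.46 (adjusted p = 0.00151). Cpa3, the carboxypeptidase of these granules (ENSMUSG00000001865; chromosome 3, 20215620 to 20242181), had 9.55 ± 4.00 and 12.5 ± 4.23 CPM at day 7 and 0.700 ± 0.380 and 16.6 ± 4.28 CPM at day 21, with an interaction of 4.16 ± 0.52 (adjusted p = 0.00177). The tryptase Tpsb2 (ENSMUSG00000033825; chromosome 17, 25366305 to 25369098) had an interaction of 4.09 ± 0.61 (adjusted p = 0.00927). In these 4 genes the PBS mean fell between days by 3.20 to 3.75 on the log2 scale, past the threshold in each, and the LLC mean differed by 0.41 to 0.89, not past it in any. The 4 proteases belong to families of similar genes among which RSEM divides reads by estimate, so their single values are less certain than their shared pattern.

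Of the 13 mast cell markers tested, these 4 passed with a positive interaction and 0 with a negative one. All 13 values were above 0, with a median log2 of 3.51 beside 0.05 over all genes. Next came Mrgprb1, a receptor of mast cells (3.51 ± 0.80, adjusted p = 0.0632), Ms4a2 and Fcer1a, chains of the IgE receptor (4.49 ± 1.17, adjusted p = 0.0798, and 4.17 ± 1.22, adjusted p = 0.103), which were looked at after the values were seen. The regulators Kit (0.17 ± 0.59) and Gata2 (0.04 ± 0.28), which other cells of fat also express, lay near 0. Summed over the list, the markers gave 69.7 to 106 CPM in day 7 PBS, 78.1 to 131 in day 7 LLC, 33.1 to 52.2 in day 21 PBS and 107 to 181 in day 21 LLC. Day 21 PBS library 4, at 38.4 CPM, lay within its group in this sum, but in each of the 4 proteases it had the highest level of its group. With that library as the only PBS library of day 21, the interactions of Mcpt4, Cpa3, Tpsb2 and Cma1 were 3.35, 3.51, 3.17 and 3.20; none passed, in a fit where 1 library stands for its group and is assumed to vary as the other groups do, and which called 0 genes.

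**Figure D4:**
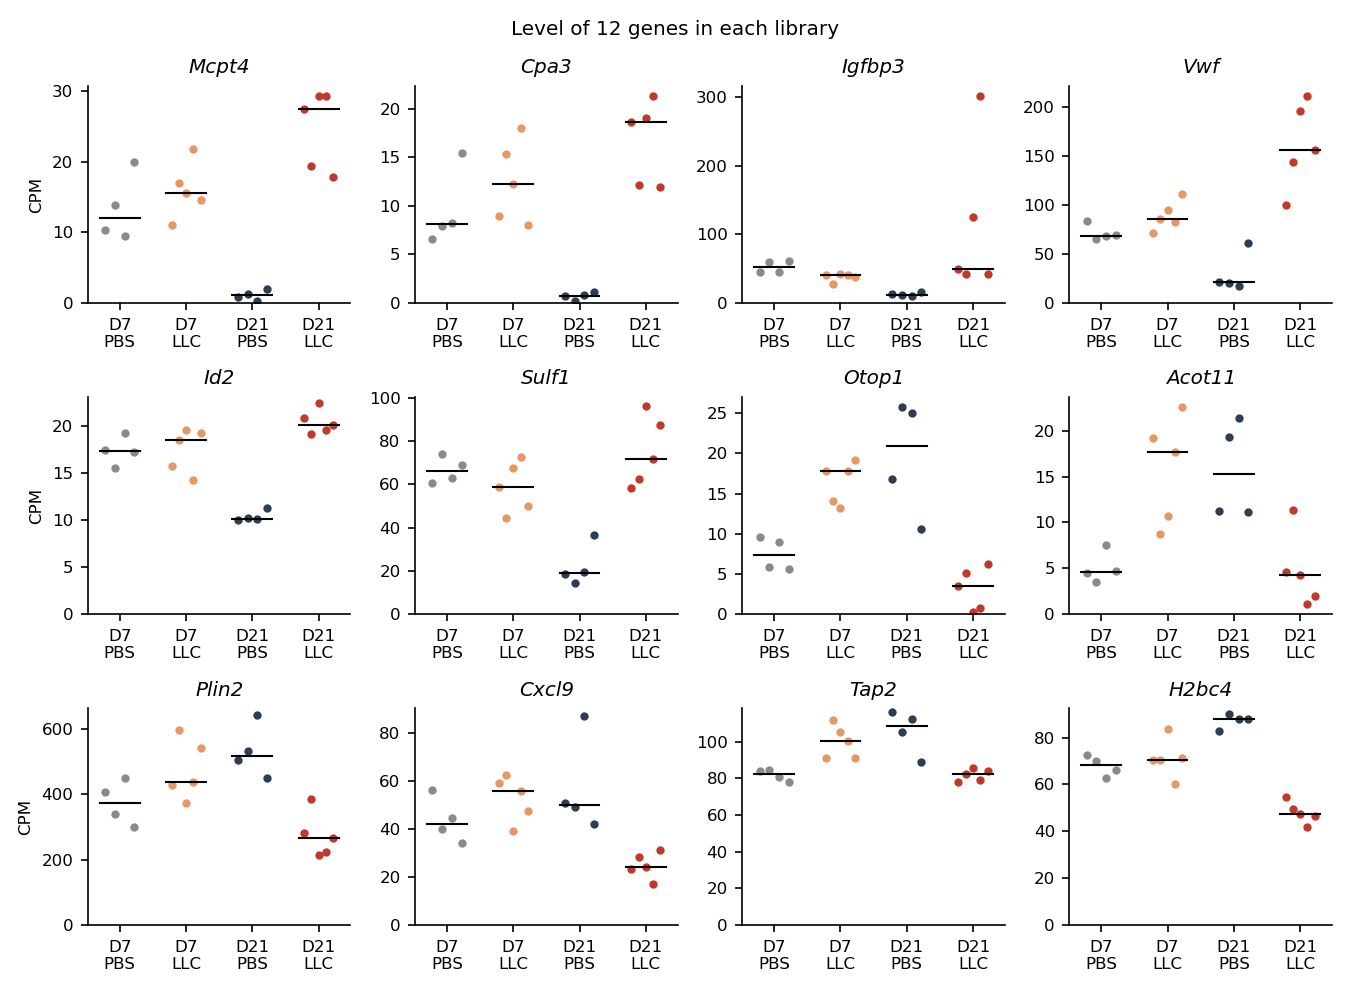
CPM of 12 genes (y axes, starting at 0) in each of the 18 libraries, by group on the x axis; bars are group medians. Mcpt4, Cpa3, Igfbp3, Vwf, Id2 and Sulf1 are lowest in the day 21 PBS group, while Otop1, Acot11, Plin2, Cxcl9 and H2bc4 have their lowest medians in the day 21 LLC group.

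Among single genes of vessels and stroma, Mmrn1, multimerin of platelets and lymphatic endothelium (ENSMUSG00000054641; chromosome 6, 60924976 to 60989378), had the largest positive interaction, 5.53 ± 0.90 (adjusted p = 0.0191). Its 4 day 21 PBS libraries held 0, 2, 2 and 2 counts and its 5 day 21 LLC libraries 59, 78, 195, 108 and 53, so the fitted size depends on few counts. At day 7 PBS libraries held 21 to 34 counts and LLC libraries 6 to 63, an overlapping range. Of 9 lymphatic markers it was the 1 that passed, and the median over the list was 1.91. Without day 21 PBS library 4 the median was 4.11 with 5 members past the threshold, and without libraries 1 to 3 it was 0.66. In the fit without library 4, 844 of all 14146 genes tested passed with a positive interaction.

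Vwf, von Willebrand factor of endothelial cells (ENSMUSG00000001930; chromosome 6, 125546774 to 125686679), measured 83.7, 65.5, 68.1 and 69.8 CPM in PBS and 71.9, 85.5, 95.3, 83.2 and 111 CPM in LLC at day 7. At day 21 it measured 21.9, 20.6, 17.7 and 61.1 CPM in PBS and 100.1, 144, 197, 212 and 156 CPM in LLC. LLC libraries were above PBS libraries at day 21 without overlap, and PBS library 4 lay nearest to them. The interaction was 2.10 ± 0.43 (adjusted p = 0.0415) and passed in 4 of the 18 fits that leave out a library. Tek, the angiopoietin receptor Tie2, fell in PBS from 103 ± 12.4 CPM at day 7 to 52.8 ± 10.9 at day 21 and measured 97.5 ± 10.8 and 99.3 ± 14.1 CPM in LLC (interaction 0.99 ± 0.20, adjusted p = 0.0415). These were the 2 of 18 endothelial markers that passed, and the list's median was 0.33. Selp, P-selectin, had 1.97 ± 0.48 (adjusted p = 0.068) and Sele, E-selectin, 2.21 ± 0.68 (adjusted p = 0.109), while Kdr, a VEGF receptor, had 0.08 ± 0.24 and Cdh5, VE-cadherin, 0.05 ± 0.18. The summed endothelial level ran from 1151 to 1607 CPM in day 21 PBS and 1578 to 2257 CPM in day 21 LLC.

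Igfbp3, which binds insulin-like growth factors (ENSMUSG00000020427; chromosome 11, 7206086 to 7213923), stood at 45.0, 59.4, 44.6 and 61.1 CPM in PBS and 41.4, 27.3, 41.9, 41.1 and 37.8 CPM in LLC at day 7. PBS at day 21 held 12.4, 11.3, 10.6 and 15.9 CPM and LLC 49.5, 42.0, 126, 301 and 42.2 CPM. LLC lay below PBS at day 7 and above it at day 21, with no overlap at either day, and LLC libraries 3 and 4 of day 21 were the highest. The interaction was 3.63 ± 0.67 (adjusted p = 0.0342). Sulf1, an enzyme that trims heparan sulfate, fell in PBS from 66.7 ± 5.96 to 22.1 ± 9.81 CPM and measured 58.7 ± 11.7 and 75.2 ± 16.3 CPM in LLC (interaction 1.95 ± 0.32, adjusted p = 0.0191). It passed in 14 of the 18 fits. Nt5e, the ecto-nucleotidase CD73, had an interaction of 2.11 ± 0.36 (adjusted p = 0.0199).

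Further secreted or surface proteins with a positive interaction were Cytl1, a small secreted protein (2.93), Ndnf, a secreted neurotrophic factor (2.53), Penk, the enkephalin precursor (2.24), Spock2, a proteoglycan (1.94), Ntn1, netrin-1 (1.77), and Plxdc2, a plexin-domain receptor (1.09). Their adjusted p ran from 0.0261 to 0.0428. Receptors included Cmklr2, which binds the adipokine chemerin (3.56), Ackr4, a scavenger of the chemokines CCL19 and CCL21 (2.77), and Itgb7, the beta 7 integrin of leukocytes (3.07). Itgb7 was 87.7 CPM in day 21 LLC library 3, the library high in B cell genes, and 20.5 to 34.2 CPM in the other 4 of its group; without that library its interaction still passed. Mgl2, a lectin of macrophages and dendritic cells, stood at 48.6 to 67.4 CPM in day 7 PBS, 12.2 to 23.8 in day 21 PBS and 34.9 to 59.7 in day 21 LLC (interaction 1.22 ± 0.24, adjusted p = 0.0415). Of the 20 macrophage markers 0 passed, with a median of 0.75. That median was 2.24 with 13 members past the threshold when day 21 PBS library 4 was left out, and -0.55 when libraries 1 to 3 were left out instead. The 20 progenitor and fibroblast markers moved alike in these fits, with 0 past the threshold and a median of 0.68. Without library 4, 10 passed (median 1.11), and the median was -0.10 without libraries 1 to 3. Their summed level did not set library 4 apart: day 21 PBS libraries 1 to 4 held 14336, 11251, 10910 and 12122 CPM. Day 21 LLC libraries held 6438 to 11841 CPM, mostly below PBS although the median interaction was positive. Over all genes, 844 of 14146 passed with a positive interaction without library 4.

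Regulators of transcription also had positive interactions. Id2, which blocks basic helix-loop-helix factors (ENSMUSG00000020644; chromosome 12, 25093799 to 25097140), stood at 17.4, 15.5, 19.3 and 17.2 CPM in PBS and 15.7, 18.5, 19.6, 14.2 and 19.3 CPM in LLC at day 7. PBS at day 21 held 9.9985, 10.2, 10.1 and 11.2 CPM and LLC 20.9, 19.2, 22.5, 19.6 and 20.1 CPM. All 4 day 21 PBS libraries, library 4 included, lay below all others. Its interaction of 0.97 ± 0.14 (adjusted p = 0.00927) held in all 18 fits that leave out a library. Smad9, a transducer of BMP signals, was a reversal: 2.09 to 2.36 CPM in PBS and 0.611 to 1.55 CPM in LLC at day 7, then 0.676 to 0.964 and 1.23 to 2.93 CPM at day 21, with no overlap at either day. Its interaction was 2.24 ± 0.43 (adjusted p = 0.0382). Plagl1, an imprinted zinc finger factor, was another reversal. It measured 47.6 ± 5.60 CPM in PBS and 25.5 ± 7.09 in LLC at day 7, then 21.8 ± 1.58 and 39.4 ± 15.7 at day 21 (interaction 1.75 ± 0.35, adjusted p = 0.0415). The third reversal in this direction, Fam167a, measured 1.90 to 8.30 CPM at day 7 and 0.361 to 2.52 CPM in day 21 PBS. Its day 21 LLC libraries held 4.37, 7.37, 22.7, 7.85 and 5.47 CPM (interaction 3.99 ± 0.81, adjusted p = 0.0415).

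Polr2a, the large subunit of RNA polymerase II, measured 160 ± 9.04 and 130 ± 11.5 CPM in PBS and LLC at day 7 and 97.0 ± 5.37 and 159 ± 42.1 CPM at day 21, without overlap at either day (interaction 1.01 ± 0.20, adjusted p = 0.0415). Smaller positive interactions belonged to Zfp462 (1.32), Utp15 of ribosome biogenesis (0.85), Bclaf1 (0.81), Ppil4 (0.75), the chromatin protein Epc2 (0.63), the heparan sulfate epimerase Glce (0.61) and the kinase Prkd3 (0.55). Of the 37, Tmem100 (2.86), Tmem30b (2.71), Krt80 (2.16), Srgap3 (2.05) and the clustered protocadherin Pcdhgb6 (1.14), whose exons are partly shared with its neighbours, complete the group.

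Among genes of heat production 2 that were reversals by size passed the threshold. Otop1, a proton channel and the gene in the series title (ENSMUSG00000051596; chromosome 5, 38275972 to 38304217, plus strand), stood at 9.56, 5.80, 8.93 and 5.61 CPM in PBS and 17.8, 14.1, 13.2, 17.8 and 19.2 CPM in LLC at day 7. PBS at day 21 held 16.8, 25.7, 25.0 and 10.6 CPM and LLC 3.44, 5.09, 0.248, 0.697 and 6.20 CPM. LLC lay above PBS at day 7 and below it at day 21, with no overlap at either day. The log2 tumour effect was 1.13 ± 0.55 at day 7, which did not pass (unadjusted p = 0.0543, adjusted p = 0.9996), and -2.65 ± 0.56 at day 21 (adjusted p = 0.00602), an interaction of -3.78 ± 0.79 (adjusted p = 0.044). Of all 58 genes it was the most negative. It passed in 5 of the 18 fits that leave out a library, those without day 21 PBS library 4 or LLC library 1, 2, 3 or 5, and its adjusted p reached 0.125 in the others. DESeq2 gave an adjusted p = 0.000393. Otop1 is named because the series title names it.

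Acot11, an acyl-CoA thioesterase of brown and beige fat (ENSMUSG00000034853; chromosome 4, 106744555 to 106804998), stood at 4.45, 3.53, 7.58 and 4.68 CPM in PBS and 19.2, 8.70, 10.7, 17.7 and 22.6 CPM in LLC at day 7. PBS at day 21 held 11.3, 19.3, 21.4 and 11.1 CPM and LLC 4.62, 11.3, 4.22, 1.14 and 2.00 CPM. LLC lay above PBS at day 7, and at day 21 it lay below except for library 2, one of those with skeletal muscle genes. The interaction was -3.39 ± 0.70 (adjusted p = 0.042).

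Ucp1 had an interaction of -7.40 ± 1.63 that did not pass (adjusted p = 0.0572). Its day 7 libraries held 0.851, 0.897, 0.986 and 0.0585 CPM in PBS and 12.2, 20.03, 35.3, 25.6 and 42.0 CPM in LLC, without overlap. By day 21 PBS held 0.120, 4.16, 17.8 and 14.9 CPM and LLC 0.393, 8.72, 0, 0.697 and 0.800 CPM, and the ranges overlapped. DESeq2 gave an adjusted p = 0.00234, and edgeR gave 0.0157 without day 21 PBS library 4. Without the 6 libraries rich in muscle genes Ucp1 was the 1 gene that passed (adjusted p = 0.0299). Those 6 include day 21 PBS libraries 1 and 2 (0.120 and 4.16 CPM of Ucp1) and day 21 LLC library 2 (8.72 CPM). Day 21 PBS was then left with libraries 3 and 4 (17.8 and 14.9 CPM). The part of muscle genes in this call was not tested.

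Of 23 thermogenic genes tested, 20 had a negative interaction, with a median of -0.91, and the 2 above passed. By size 8 of the 23 were reversals, against 1.12% of all genes. Besides Otop1, Acot11 and Ucp1 these were Cpt1b, which brings fatty acids into mitochondria and is also abundant in muscle (-3.91 ± 1.10, adjusted p = 0.093), the respiratory subunit Cox8b (-1.91), the deiodinase Dio2 (-3.11), the lipid droplet protein Cidea (-2.22) and the acyl-CoA synthetase Slc27a2 (-2.73). The last 4 and the next 2 were named after their values were seen. Elovl3, a fatty acid elongase of brown fat, was a loss by size (day 7 effect 3.39, day 21 effect -0.45), and Tmem26, a beige cell marker, went the other way (interaction 2.32, adjusted p = 0.196). The list's median stayed below 0 in every alternative, between -1.50 and -0.75.

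Among single genes of lipid handling, Plin2, which coats lipid droplets (ENSMUSG00000028494; chromosome 4, 86648386 to 86670060), stood at 408, 340, 448 and 300 CPM in PBS and 428, 597, 373, 436 and 540 CPM in LLC at day 7. By day 21 PBS held 503, 532, 642 and 450 CPM and LLC 283, 384, 213, 223 and 267 CPM. The groups overlapped at day 7 and did not at day 21 (interaction -1.30 ± 0.26, adjusted p = 0.0415; 4 of the 18 fits without a library). Mecr, an enzyme of mitochondrial fatty acid synthesis, measured 39.2 ± 2.24 and 40.7 ± 4.21 CPM at day 7 and 58.5 ± 9.14 and 27.8 ± 5.91 CPM at day 21 (interaction -1.13 ± 0.20, adjusted p = 0.0283). The mitochondrial carrier Slc25a35 fell in LLC from 62.6 ± 5.94 to 30.1 ± 8.84 CPM (interaction -1.28 ± 0.24, adjusted p = 0.0352). Npc2, which moves cholesterol out of lysosomes, had -0.77 ± 0.15 (adjusted p = 0.0415) and Ccdc3, a protein secreted by fat, -1.29 ± 0.26 (adjusted p = 0.0415).

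The lists of fat metabolism held no member past the threshold, although most members had a negative interaction. Without day 21 PBS library 4, 4 members of lipogenesis, 4 of fatty acid oxidation, 4 of lipolysis and 6 of cholesterol synthesis passed with a negative interaction, and DESeq2 called 4, 4, 5 and 4. Over all genes, 378 of 14146 passed with a negative interaction without that library, and 345 of 18337 in DESeq2. Without libraries 1 to 3 the medians of the first 3 lists were -0.34, -0.36 and -0.30. Lipogenesis had 22 of 25 below 0 and a median of -0.83, with Pnpla3, a lipid droplet lipase, at -1.67 ± 0.41 (adjusted p = 0.0701) and Acss2, which makes acetyl-CoA, at -1.80 ± 0.56 (adjusted p = 0.112). Fatty acid oxidation had 22 of 24 below 0 and a median of -0.77, with Acads, the short-chain dehydrogenase, at -1.19 ± 0.26 (adjusted p = 0.0572) and Cpt2 at -0.97 ± 0.24 (adjusted p = 0.0701). Lipolysis had 18 of 20 below 0 and a median of -0.66, with Prkaca, the catalytic subunit of protein kinase A, at -0.82 ± 0.19 (adjusted p = 0.0641) and Adrb1, a receptor of noradrenaline, at -2.83 ± 0.74 (adjusted p = 0.0825). Cholesterol synthesis had 20 of 24 below 0 and a median of -0.82, with Pmvk at -1.23 ± 0.27 (adjusted p = 0.0584) and Lss at -1.08 ± 0.33 (adjusted p = 0.109); with day 21 PBS library 4 as the only PBS library of its day the median was 0.02. The medians were -0.44 for 24 nuclear genes of the respiratory chain, -0.36 for 13 mitochondrially encoded genes, -0.39 for 21 genes of branched-chain amino acid breakdown and -0.32 for 23 genes of mature fat cells, each with 0 past the threshold. Without day 21 PBS libraries 1 to 3 they were -0.07, -0.24, -0.07 and 0.03, in the same order. The mitochondrially encoded median was -0.0006 without day 21 PBS library 4 and LLC libraries 1 and 3. Adipoq, adiponectin, had an interaction of -0.13 (adjusted p = 0.844) and Lep, leptin, -0.80 (adjusted p = 0.453).

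In these fat cell lists the PBS medians were higher at day 21 than at day 7 and the LLC medians differed less or were lower. The log2 medians between days were 0.39 in PBS and -0.46 in LLC for lipogenesis, 0.64 and -0.21 for fatty acid oxidation, 0.41 and -0.11 for lipolysis, and 0.66 and -0.33 for thermogenic genes. Cholesterol synthesis differed from them, with 0.01 in PBS and -0.74 in LLC.

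**Figure D5:**
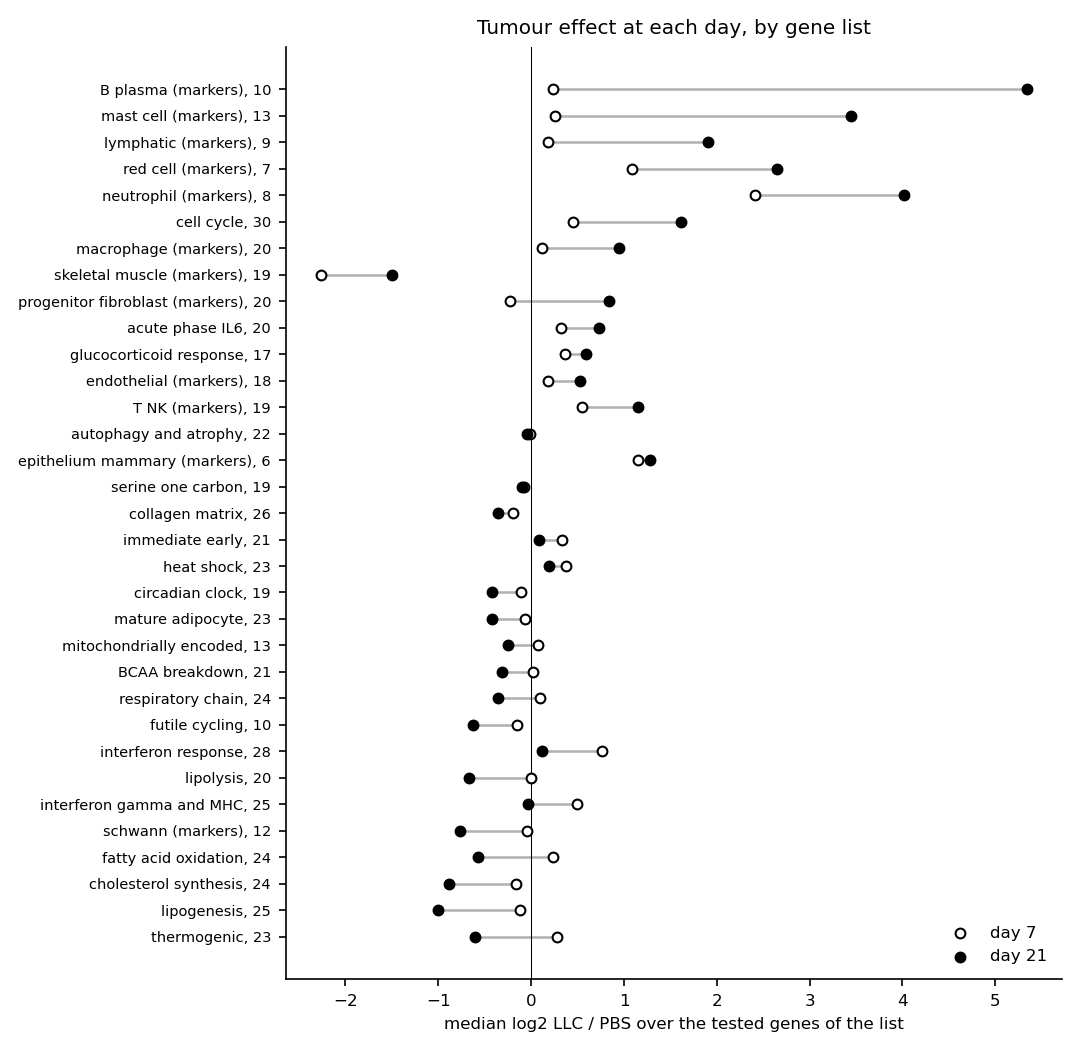
Median log2 LLC over PBS (x axis) over the tested genes of each list at day 7 (open circles) and day 21 (filled circles), with lists and their number of tested genes on the y axis in order of the median interaction. Mast cell markers move from 0.25 to 3.44, thermogenic genes from 0.28 to -0.61 and interferon response genes from 0.76 to 0.11; the B cell points, 0.24 and 5.34, include day 21 LLC library 3, without which the median interaction is -0.06.

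The list of interferon response genes had a median tumour effect of 0.76 at day 7, where 0 of its 28 members passed for that effect, and of 0.11 at day 21. Interferons bind receptors that activate STAT factors, and these with IRF factors bind the interferon-stimulated response element (ISRE) in promoters of antiviral genes, of guanylate-binding proteins and of antigen presentation genes. The core searched for was GAAANNGAA, on both strands, in the 300 bases around each start in RefSeq promoters (GRCm38.p6). It was present in 12 of the 18 matched interferon response genes and in 11 of the 18 matched genes of interferon-gamma and MHC, against 9.76% of 27025 promoters. Gbp6, a list member whose interaction passed, was not among the genes with a match. The lists were chosen as interferon genes, so this share describes the lists and not the interaction. Searched likewise, TCACNCCAC was in 1 of 17 matched cholesterol synthesis genes (1.44% of promoters). CACGTG was in 5 of 16 clock genes (8.09%) and TGACGTCA in 2 of 16 thermogenic genes (2.03%). Windows around ISRE matches are shown to let the element be seen next to the values, with the matches in capitals. They come from Cxcl9, whose interaction passed, and from 4 list members picked after the search, 5′ to 3′ on the gene's strand.
Cxcl9 (chr5:92328226-92328274, minus strand): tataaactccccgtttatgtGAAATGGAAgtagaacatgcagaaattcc
Bst2 (chr8:71537568-71537622, minus strand): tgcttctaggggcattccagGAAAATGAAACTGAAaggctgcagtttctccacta
Gbp3 (chr3:142559980-142560034, plus strand): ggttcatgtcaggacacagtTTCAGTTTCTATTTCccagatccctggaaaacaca
Igtp (chr11:58199502-58199550, plus strand): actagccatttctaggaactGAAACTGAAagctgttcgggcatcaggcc
Isg15 (chr4:156200856-156200916, minus strand): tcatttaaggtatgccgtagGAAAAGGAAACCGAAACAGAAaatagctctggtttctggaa

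Among interferon genes 2 passed, and Tap2, of the same pathway but on neither list, passed with them. Cxcl9, a chemokine that attracts T cells (ENSMUSG00000029417; chromosome 5, 92321347 to 92328079), stood at 56.2, 39.9, 44.7 and 34.3 CPM in PBS and 59.4, 62.7, 39.1, 55.9 and 47.5 CPM in LLC at day 7. By day 21 PBS held 51.1, 49.1, 87.0 and 42.3 CPM and LLC 23.2, 28.5, 24.0, 17.2 and 31.5 CPM. The groups overlapped at day 7, and LLC lay below PBS at day 21 (interaction -1.48 ± 0.31, adjusted p = 0.044). Gbp6, a guanylate-binding protein, was a reversal by means, 62.9 ± 11.8 and 110 ± 32.5 CPM in PBS and LLC at day 7 and 81.6 ± 19.2 and 48.0 ± 12.5 CPM at day 21, with overlap at both days (interaction -1.57 ± 0.33, adjusted p = 0.048). Both passed in 4 of the 18 fits that leave out a library. Tap2, which carries peptides to MHC class I, differed little but evenly. It stood at 77.7 to 84.6 CPM in PBS and 91.0 to 112 CPM in LLC at day 7, then at 89.0 to 116 and 77.8 to 85.6 CPM at day 21, with no overlap at either day (interaction -0.66 ± 0.12, adjusted p = 0.0292).

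Of 28 interferon response genes 0 passed, and 26 had a negative interaction with a median of -0.66. The median was -0.36 without day 21 PBS library 4, -1.03 with 3 members past the threshold without day 21 LLC library 1, and -1.34 without day 21 PBS libraries 1 to 3. Over all genes, 83 of 13923 passed with a negative interaction without day 21 LLC library 1. By size 17 of the 28 were losses, against 1.87% of all genes. PBS and LLC did not overlap for 10 of the 28 at day 7 (2.48% of all genes) and for 0 at day 21 (9.57% of all genes). Bst2, which tethers budding virus, measured 31.1 ± 1.98 and 61.0 ± 19.1 CPM at day 7 and 38.0 ± 9.69 and 33.9 ± 10.1 CPM at day 21 (interaction -1.14 ± 0.32, adjusted p = 0.0938). Ifi44 had -1.72 ± 0.58 (adjusted p = 0.136). Isg15, a ubiquitin-like modifier, had -1.28 ± 0.51, Mx1, an antiviral GTPase, 0.16 ± 0.75 and Ifit1 -0.36 ± 0.65. Summed interferon response levels ran from 1737 to 2658 CPM in day 7 LLC and 1451 to 1626 CPM in day 7 PBS, without overlap, and from 1184 to 1947 CPM in day 21 LLC and 1533 to 2128 CPM in day 21 PBS.

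The 25 genes of interferon-gamma and MHC split by class. GTPases such as Gbp3 (-1.19 ± 0.34, adjusted p = 0.0938), Igtp (-1.18 ± 0.36) and Gbp5 (-1.20 ± 0.40), and the MHC class I genes H2-K1 (-0.75 ± 0.17) and H2-D1 (-0.67 ± 0.16, both adjusted p = 0.0641), were negative. MHC class II genes were positive without passing: H2-Aa 1.38 ± 0.55, H2-Ab1 1.13 ± 0.51, H2-Eb1 1.18 ± 0.54, the invariant chain Cd74 1.71 ± 0.64 and the class II activator Ciita 2.33 ± 1.09. These class II genes are expressed by macrophages, dendritic cells and B cells, whose markers differed between libraries as given above. The whole list had 20 of 25 below 0 and a median of -0.70, and the medians of both interferon lists stayed below 0 in every alternative. Without day 21 PBS library 4, 1 of the 25 passed with a positive interaction and 6 with a negative one (844 and 378 of 14146 over all genes). Without LLC libraries 1 and 3 of that day as well, 3 and 7 passed (823 and 367 of 14011). DESeq2 called 0 and 8 (380 and 345 of 18337).

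The negative group held 3 histone genes, noticed after the values were seen, with no list of histone genes fixed. H2bc4, a core histone H2B gene (ENSMUSG00000018102; chromosome 13, 23684199 to 23692908), stood at 72.7, 70.1, 62.8 and 66.1 CPM in PBS and 70.6, 70.5, 83.8, 60.0 and 71.5 CPM in LLC at day 7. At day 21 PBS held 83.0, 90.2, 87.8 and 88.0 CPM and LLC 54.5, 49.4, 47.3, 41.7 and 46.4 CPM. The 4 PBS and 5 LLC libraries of day 21 lay above and below nearly all of day 7 (interaction -0.94 ± 0.13, adjusted p = 0.00505), and the call held in all 18 fits without a library. H2ac19 had -1.23 ± 0.24 (adjusted p = 0.0415) and the linker histone H1f2 -0.84 ± 0.16 (adjusted p = 0.0382). Most histone messages lack a poly(A) tail and are poorly captured by the selection used, and near-identical copies share reads, so these levels concern only the captured part.

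Other genes of the negative group were Lamc3, a laminin chain, with 13.7 ± 1.64 and 17.2 ± 1.34 CPM in PBS and LLC at day 7 and 19.6 ± 3.68 and 6.91 ± 2.71 CPM at day 21 (interaction -1.83 ± 0.33, adjusted p = 0.0269). Dnaja4, a cochaperone of HSP70, lay above PBS at day 7 and below it at day 21 without overlap, by less than 1.5-fold at each (interaction -0.99 ± 0.16, adjusted p = 0.0148), and passed in 16 of the 18 fits. The rest had interactions between -1.22 and -0.67: Znrf2, a ubiquitin ligase, Itpk1, an inositol phosphate kinase, Rmdn3, which links mitochondria to the endoplasmic reticulum, the vesicular polyamine transporter Slc18b1, the actin acetylase Naa80 and the kinase Cdk5.

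The remaining lists had 0 members past the threshold. Acute phase and interleukin-6 genes had a median of 0.61 and split by member: Osmr, the oncostatin M receptor (0.68 ± 0.18, adjusted p = 0.0837), and Stat3 (0.56 ± 0.16, adjusted p = 0.0938) were positive, and Orm1, an acute phase glycoprotein, was negative (-2.17 ± 0.47, adjusted p = 0.0534). Orm1 measured 162 ± 26.3 and 148 ± 25.4 CPM at day 7 and 196 ± 45.5 and 39.9 ± 19.8 CPM at day 21. Red cell genes had a median of 1.54, with LLC above PBS at both days (list medians 1.09 and 2.64), so that the same direction was larger at day 21. Levels of the adult beta globin gene Hbb-bs were 346 ± 45.6 and 720 ± 303 CPM at day 7 and 204 ± 82.7 and 1277 ± 508 CPM at day 21 (interaction 1.58 ± 0.48, adjusted p = 0.108). Schwann cell and myelin genes had 11 of 12 below 0 and a median of -0.72, with S100b at -1.40 ± 0.36 (adjusted p = 0.0798).

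Smaller medians were 0.46 for glucocorticoid responsive genes, where the metallothionein Mt1 had 1.18 ± 0.46, -0.23 for heat shock genes, -0.28 for the circadian clock, -0.18 for immediate early genes, -0.62 for futile cycling outside UCP1, -0.12 for collagen and matrix (0.36 with 5 members past the threshold without day 21 PBS library 4, and -0.56 without day 21 LLC library 1), 0.09 for autophagy and atrophy genes and -0.02 for serine and one-carbon metabolism. Over all genes, 844 of 14146 passed with a positive interaction without day 21 PBS library 4. The median for cell cycle genes was 1.02 and became -0.79 without day 21 LLC library 1. For B and plasma cell genes it was 4.53 and became -0.06 without day 21 LLC library 3. Neutrophil markers had 1.04, T and NK cell markers 0.31 (-0.47 without day 21 LLC library 3), epithelial markers 0.04 (-1.02 without day 21 LLC library 1) and skeletal muscle markers 0.75, which ranged from -6.65 to 7.83 over the alternatives.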

How the data were processed

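Poly(A) RNA of 18 inguinal fat samples was sequenced from NEBNext Ultra libraries, per the labels' protocols; no strand marking is named, so overlapping and antisense genes cannot be told apart. Per the submitters' processing notes, reads were trimmed with fastp 0.23.0 and quantified with RSEM on mm10 (GRCm38); for the aligner and annotation, not given in the sources used here, nothing is assumed. The authors deposited, per gene and library, expected counts rounded to whole numbers, which were used for all tests, and TPM, used in alternatives only. The authors' deposited log2 fold changes and p-values were not used.

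The 2 tables were joined by gene ID, giving 21899 IDs, and 14566155 to 18969387 counts a library; totals and counting error limit genes of few counts. Genes passing filterByExpr (13975) were fitted in edgeR 4.0.16 (R 4.3.3) with TMM scaling and 1 mean per group over all 18 libraries, which share 1 estimate of the spread; the interaction contrast was tested two-sided with the quasi-likelihood test and Benjamini-Hochberg adjustment over all genes at 0.05. SE is the log2 value divided by the root of F. Levels are CPM with TMM scaling. A 1.5-fold size defined the classes. The fit was also run on simulated counts, with an outcome that is not given here and is not used as support. No pair of libraries in a group agreed within sampling noise (lowest chi-square per gene 15.8 over 32 pairs). Alternatives used DESeq2 1.42.0 and limma 3.58.1, other scalings and filters, a replicate block, and omission of libraries. Coordinates are of GRCm38 (GENCODE M21), matched by ID.

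Members and the 33 lists were chosen with earlier results of these data known. Named were Otop1, Ucp1, Adipoq and Lep, the 10 largest interactions in each direction with a mean of at least 5 CPM in a group, the 5 of smallest p per class and direction, and up to 4 of smallest p per list; the text names the other genes past the threshold and some list members beyond this rule, chosen after their values were seen.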

Additional observations from a re-analysis of the deposited data

Results flagged for a closer look

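The tumour effect differed between the 2 days, by the interaction test of edgeR, for each of the 58 genes past the threshold; values are log2 LLC over PBS at day 21 minus day 7. The largest values belonged to Mmrn1 (5.53), Mcpt4 (4.20), Cpa3 (4.16), Tpsb2 (4.09), Fam167a (3.99), Cma1 (3.88), Igfbp3 (3.63), Cmklr2 (3.56), Itgb7 (3.07), Cytl1 (2.93), Tmem100 (2.86), Ackr4 (2.77), Tmem30b (2.71), Ndnf (2.53), Penk (2.24) and Smad9 (2.24). Next came Krt80 (2.16), Nt5e (2.11), Vwf (2.10), Srgap3 (2.05), Sulf1 (1.95), Spock2 (1.94), Ntn1 (1.77), Plagl1 (1.75), Zfp462 (1.32) and Mgl2 (1.22). The smaller positive values were those of Pcdhgb6 (1.14), Plxdc2 (1.09), Polr2a (1.01), Tek (0.99), Id2 (0.97), Utp15 (0.85), Bclaf1 (0.81), Ppil4 (0.75), Epc2 (0.63), Glce (0.61) and Prkd3 (0.55). The most negative values were those of Otop1 (-3.78), Acot11 (-3.39), Lamc3 (-1.83), Gbp6 (-1.57), Cxcl9 (-1.48), Plin2 (-1.30), Ccdc3 (-1.29), Slc25a35 (-1.28), H2ac19 (-1.23) and Znrf2 (-1.22). The smaller negative values were those of Itpk1 (-1.14), Mecr (-1.13), Dnaja4 (-0.99), Rmdn3 (-0.98), H2bc4 (-0.94), Slc18b1 (-0.88), H1f2 (-0.84), Npc2 (-0.77), Naa80 (-0.73), Cdk5 (-0.67) and Tap2 (-0.66). 

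For 64 genes (the 58 past the threshold, Ucp1, Adipoq, Lep, and Bst2, Orm1 and Hbb-bs, whose levels are printed above), 256 sets of 4 or 5 libraries of 1 gene and group were searched for a library far from its group (Dixon's gap test at the 95% level), and 20 libraries (7.81%) were found, where chance gives about 1 in 20. Day 21 PBS library 4 accounted for 6 of them: Bst2 at 52.5 CPM, Fam167a at 2.52 CPM, Id2 at 11.2 CPM, Mecr at 44.9 CPM, Vwf at 61.1 CPM and Krt80 at 6.64 CPM. In that group library 1 had 0 CPM of Mmrn1 and library 2 654 CPM of Npc2. In day 21 LLC, library 1 had 51.7 CPM of Bst2, library 2 had 8.72 CPM of Ucp1, library 3 had 22.7 CPM of Fam167a and 87.7 CPM of Itgb7, and library 5 had 31.3 CPM of Naa80 and 9.67 CPM of Zfp462. In day 7 PBS, library 4 had 0.0585 CPM of Ucp1 and 1895 CPM of Adipoq, and library 1 had 5.76 CPM of Srgap3. In day 7 LLC, library 2 had 27.3 CPM of Igfbp3 library 4 had 2.24 CPM of Ackr4 and library 5 had 1243 CPM of Hbb-bs.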

How the results depend on the processing

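Over 33 alternatives, which reuse libraries that chose the 58 genes, all 58 kept their direction, while the number past the threshold moved. Given as positive and negative interactions, then reversals and gains, all 18 libraries in edgeR gave 37, 21, 6 and 45. DESeq2 gave 380, 345, 54 and 446, with 11 losses. Limma voom with 1 variance per group gave 96, 64, 12 and 130, and limma-trend on log2 CPM 121, 66, 24 and 142. Limma on log2(TPM + 1) gave 17, 4, 3 and 16, and on log2(TPM + 0.1) 21, 2, 3 and 18, with 91.3% of calls positive against 63.8%; the median over all genes moved to 0.15 and 0.17. At an adjusted p under 0.01 there were 5, 1, 0 and 6, and at 2-fold in place of 1.5-fold 2 reversals. Without the 6 libraries rich in muscle genes there were 0, 1, 1 and 0, and without day 21 PBS library 4 and LLC libraries 1 and 3 there were 823, 367, 50 and 903, with 8 losses. An alternative chosen after seeing the data, without day 21 PBS libraries 1 to 3, gave 0, 0, 0 and 0 with 771 genes at an unadjusted p under 0.05. Leaving out each library in turn gave 5 to 844 positive and 1 to 378 negative interactions, 0 to 53 reversals, 6 to 981 gains and 0 to 3 losses. The cause of these moves was not tested.

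Same-numbered libraries correlated in their deviations from the group means with r between 0.12 and 0.53 at day 7 and between -0.27 and 0.30 at day 21. The labels state no pairing and not every pair exceeded 0.1, so the numbers were not used as pairs, although all 4 pairs of day 7 exceeded it. A fit with a replicate block within day, which leaves out LLC libraries 5, gave 37, 38, 2 and 69 and shared 23 of the 58 genes; 3 of 8 PBS libraries correlated best with their own number. Without LLC libraries 5 and with no block there were 18, 17, 1 and 31, an alternative also added later.

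Some values changed sign, none past the threshold. Adipoq ranged from -0.286 to 0.00109 when 1 library was left out, the positive value without day 21 LLC library 1, and became 0.10 without day 21 PBS library 4 and LLC libraries 1 and 3, and 0.0297 without day 21 PBS libraries 1 to 3. Without those 3, Lep went from -0.80 to 0.41, Csf1r from 1.13 to -0.19, Mrc1 from 1.35 to -0.12 and Lyz2 from 1.26 to -0.31. Depth limits genes such as Mmrn1, with 6 counts over the 4 day 21 PBS libraries.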
